A study of Drosophila melanogaster with 8 samples.

Results

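Genes of vesicle and endosome traffic were followed in heads of drug-fed Drosophila melanogaster males. They comprised every gene whose array symbol was Rab, Syx, Syt, Snx or Vps followed by a number, or was nSyb, Snap25, comt, shi or Syn. This rule found 41 of the 6793 named genes of the array, and they fell into 11 Rab genes, 3 SNARE or synaptotagmin genes and 27 sorting genes. The Syx genes, Snap25, comt, Syn, Syt1, Rab5, Rab7 and Rab11 were not analysed here.

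Rab proteins are small GTPases that mark each membrane compartment and recruit the motors and tethers that move vesicles to it. SNARE proteins fuse a vesicle with its target membrane, and synaptotagmins, many of which bind calcium, act on that fusion at synapses and elsewhere. Sorting proteins then decide what happens to cargo taken up from the surface: dynamin pinches vesicles off, retromer and sorting nexins return cargo, ESCRT complexes pass it to lysosomes, and large tethers dock endosomes. Nerve terminals run this cycle at a high rate, and temperature-sensitive alleles of shi, the fly dynamin gene, block vesicle recovery there and paralyse the fly.

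All flies were unmated males of the Oregon-R wild type, 3 to 4 days old at the start, in vials that began with 30 flies. For 7 days the treated flies of both groups ate food with 8 mg/ml of the convulsant pentylenetetrazole, which blocks GABA-A receptors. Food with 16 mg/ml of the anticonvulsant gabapentin followed for 3 days. The day 14 group had 4 more days on normal food before its heads were taken, while the day 10 group was sampled when gabapentin feeding ended. Controls stayed on normal food in parallel. There were 4 arrays per group, and on each of them RNA from pooled whole heads of 1 treated replicate was set against its own control pool on spotted cDNA features. The dye of the treated RNA was Cy5 for replicates 1 and 2 and Cy3 for the other two. On day 14 replicates 1 to 3, a line of the labels writes ETH, which it does not explain, for the second drug, so these arrays were grouped by their titles. Because whole heads were pooled, fewer cells of a type and less RNA per cell cannot be told apart.

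Values are log2 ratios, where 0 means equal signal in treated and control heads and 1 means a doubling. They were read as Cy5 over Cy3, a likely direction since the labels write the channels in that order, then centred on each array's median, and the sign was turned on the arrays with treated RNA in Cy3. The sources used here do not settle whether the authors had already turned those arrays, so means with the deposited signs are given beside the main results. Before any turning, day 10 replicate 4, a Cy3 array, correlated with the Cy5 arrays 1 and 2 at a Pearson r of 0.37 and 0.39 across features, which are not independent replicates. For replicate 3, the other Cy3 array of day 10, these r were 0.03 and 0.04. On day 14 the Cy3 arrays 3 and 4 had r = 0.21 and 0.20 with Cy5 replicate 2, but -0.28 and -0.11 with Cy5 replicate 1. After centring by position, as described further on, the Spearman correlations of day 10 replicate 4 with replicates 1 and 2 were only 0.065 and 0.095. Those of replicate 3 were 0.093 and 0.133. For day 14 arrays 3 and 4 they were 0.108 and 0.055 with replicate 2, and -0.197 and -0.113 with replicate 1.

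Of the 41 genes, 40 had a value on at least 1 array, and Syt14 had none. A gene was tested on a day when it had values on at least 3 of its 4 arrays, which left 21 genes at day 14 and 31 at day 10, with 18 tested on both days. Single day 14 arrays measured 18 to 26 of the 41 genes and day 10 arrays 25 to 35, against 6628 to 14095 and 12929 to 19719 of the 27648 features overall. The genes measured on all 8 arrays numbered 6, namely Rab2, Rab3, Rab30, Rab35, Rab39 and Vps24. Another 6, Rab18, Snx6, Vps13, Vps16B, Vps53 and Vps8, had too few values for a test on either day.

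**Figure D1:**
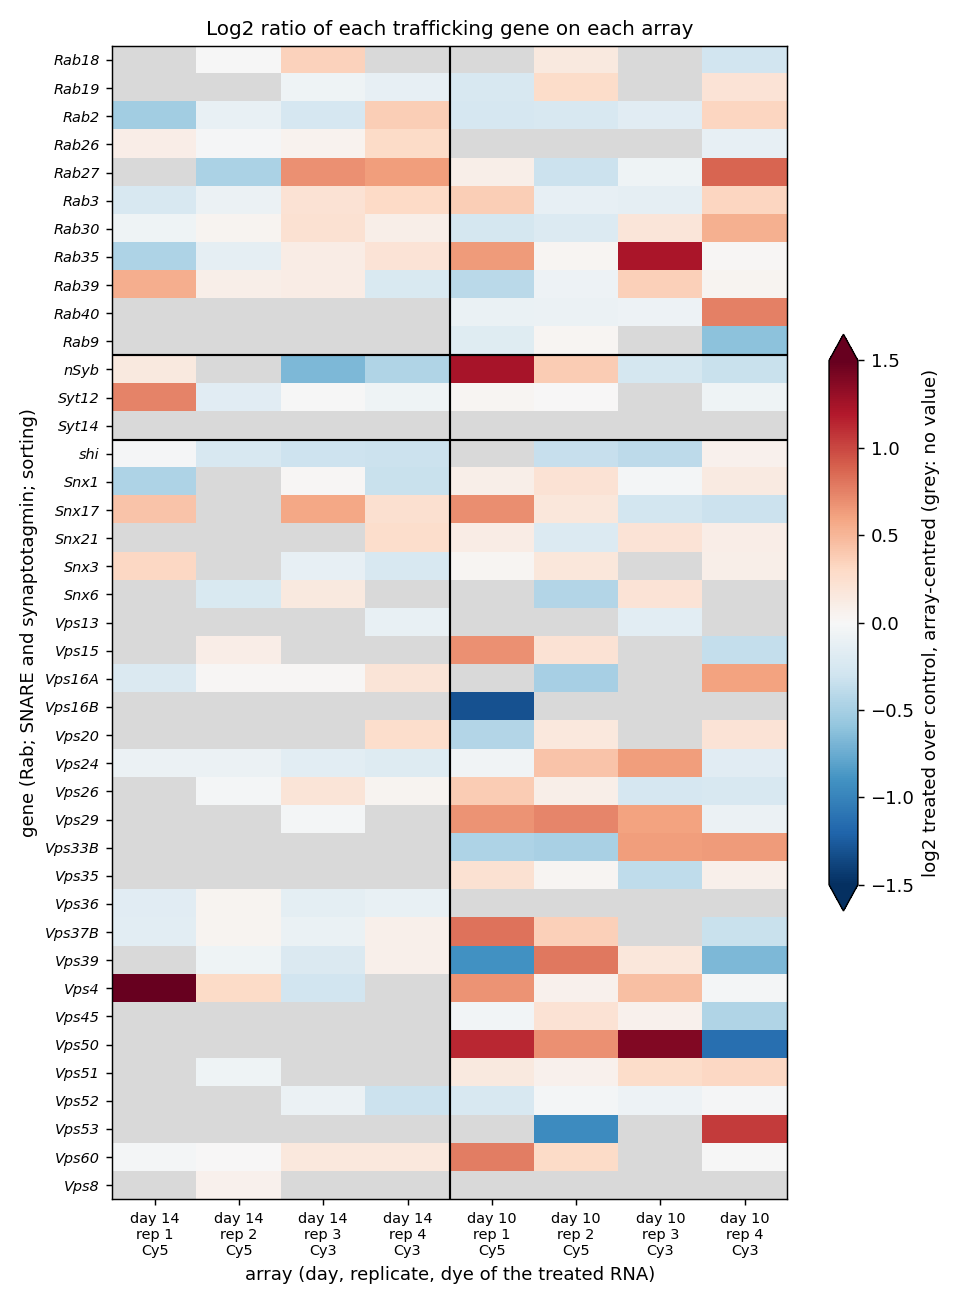
Log2 ratio of treated over control for each of the 41 genes (rows) on each of the 8 arrays (columns, day 14 left and day 10 right), with swapped arrays turned. Red is above 0, blue below 0 and grey has no value. Vps4 on day 14 replicate 1 stands at 2.05, past the end of the colour scale, while its other 2 day 14 values are 0.28 and -0.29.

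No trafficking gene passed the test on either day. At an adjusted p of 0.05 by limma's moderated test, 0 of 21 genes passed at day 14 and 0 of 31 at day 10, and likewise 0% of the 6142 and 11312 genes and features tested. At an unadjusted p under 0.05, 0 of 21 genes stood at day 14, where 2.87% of all features did. At day 10 it was 1 of 31, Vps29, where 4.54% of all features did. With deposited signs it was 2 of 21 genes at day 14 (Rab27 and Vps4), against 5.13% of all features. At day 10 it was then 5 of 31 (nSyb, Rab30, Vps15, Vps33B and Vps37B), against 22.6%. Centred by position, as described further on, it was 1 of 21 (Snx17) against 3.97% and 3 of 31 (shi, Rab3 and Vps29) against 6.32%.

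With swapped arrays turned, the median of the Rab genes lay close to a ratio of 1. At day 14, 5 of 7 tested Rab genes were above 0 with a median log2 ratio of 0.07, and at day 10 it was 6 of 9 with a median of 0.08. Over all features the medians were 0.01 at day 14 and 0.03 at day 10, and 51% and 55.4% lay above 0. Kept as deposited, the Rab medians lay below 0, at -0.19 at day 14 and -0.16 at day 10.

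Rab3, which associates with synaptic vesicles, had log2 ratios of -0.24, -0.09, 0.22 and 0.30 on day 14 replicates 1 to 4 and of 0.37, -0.12, -0.14 and 0.32 on those of day 10. Its means were 0.05 ± 0.15 at day 14 and 0.11 ± 0.15 at day 10 (SE, n = 4 each). Each SE here and below is that of limma's fit, which shares its estimate of the spread between both days and moderates it over all features. It is therefore not the spread of the n arrays of that day alone. Values on both sides of 0 occurred on each day, so neither day separated treated from control heads. With deposited signs all 4 day 14 values of Rab3 were below 0 and the mean was -0.21.

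Rab27, a regulator of secretory granules, had no value on day 14 replicate 1 and -0.47, 0.69 and 0.62 on replicates 2 to 4, for a mean of 0.28 ± 0.29 (SE, n = 3). At day 10 it had 0.09, -0.33, -0.06 and 0.87 and a mean of 0.14 ± 0.25 (SE, n = 4). The high values lay on Cy3 arrays, at day 14 on both and at day 10 on replicate 4. Without the turn the day 14 mean was -0.59, with every measured array below 0 (unadjusted p = 0.0136, adjusted p = 0.90 by limma).

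Rab2, which acts between the endoplasmic reticulum and the Golgi and on the way to lysosomes, had -0.52, -0.11, -0.25 and 0.37 at day 14 and -0.25, -0.25, -0.17 and 0.33 at day 10. Replicate 4 was above 0 and the other 3 below it on both days. The means were -0.13 ± 0.17 at day 14 and -0.08 ± 0.17 at day 10 (SE, n = 4 each), and with deposited signs -0.19 and -0.16.

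Rab35, which acts in recycling from endosomes to the surface, had the highest mean of the Rab genes at day 10. Its log2 ratios there were 0.64, 0.03, 1.22 and 0.02, all above 0, with a mean of 0.48 ± 0.21 (SE, n = 4), a 1.39-fold ratio (unadjusted p = 0.0500, adjusted p = 0.991 by limma). Replicates 1 and 3 carried this mean, which was 0.23 without replicate 3, and with deposited signs its direction turned, to -0.14. The gene has 2 spot pairs, and only the first was high, at 1.66, 0.05, 1.22 and -0.05 on replicates 1 to 4. The second read -0.38, 0.015 and 0.095 on replicates 1, 2 and 4 and had no value on replicate 3. At day 14 Rab35 had -0.47, -0.14, 0.11 and 0.20, which is -0.07 ± 0.21 on average (SE, n = 4), and -0.23 with deposited signs.

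Rab39, tied to late endosomes and autophagy in mammals, had 0.54, 0.09, 0.11 and -0.22 at day 14 and -0.41, -0.07, 0.35 and 0.04 at day 10. The means of 0.13 ± 0.17 and -0.02 ± 0.17 (SE, n = 4 each) both lay within the spread between arrays, and with deposited signs they were 0.19 and -0.22. Rab9, which returns receptors from late endosomes to the Golgi, had no day 14 value. At day 10 Rab9 stood at -0.18, 0.03 and -0.62 on replicates 1, 2 and 4, the lowest mean of the 9 Rab genes at -0.25 ± 0.21 (SE, n = 3), and at -0.07 without replicate 4. With deposited signs its mean was 0.16, on the other side of 0.

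Of the remaining Rab genes, Rab26 and Rab30, linked to secretory vesicles and to the Golgi, averaged 0.10 and 0.07 at day 14. At day 10 Rab19 averaged 0.08, Rab30 0.06 and Rab40 0.12. Their day 10 means with deposited signs were -0.06, -0.30 (unadjusted p = 0.0272, adjusted p = 0.166 by limma) and -0.22. At day 14 those of Rab26 and Rab30 were -0.06 and -0.08. Rab18, a lipid droplet Rab in mammals, was measured on 2 arrays a day and ranged from -0.29 to 0.34 over them.

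Of the SNARE and synaptotagmin genes, only nSyb and Syt12 could be tested. nSyb encodes neuronal synaptobrevin, the vesicle SNARE of fly synapses. At day 14 nSyb had 0.15, -0.67 and -0.46 on replicates 1, 3 and 4, with a mean of -0.33 ± 0.31 (SE, n = 3, adjusted p = 0.999 by limma). At day 10 it had 1.23, 0.38, -0.26 and -0.34, with a mean of 0.25 ± 0.27 (SE, n = 4). On both days the Cy5 arrays were above 0 and the Cy3 arrays below it, so the turn decides its direction. With deposited signs nSyb was above 0 on all 7 measured arrays and averaged 0.43 at day 14 and 0.55 at day 10 (unadjusted p = 0.0696 and 0.0129, adjusted p = 0.983 and 0.123 by limma).

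Medians of markers of photoreceptors, neurons that make up much of a fly head, had the sign of nSyb on every array that measured it. Single markers did not all follow. On day 10 replicate 4, trp, trpl and rdgA stood at 0.32, 0.25 and 0.51, while Arr1, Arr2, inaD and inaC were below 0. The 7 of 10 listed markers on the array had day 14 medians of 0.05, 0.01, -0.59 and -0.66 on replicates 1 to 4 and day 10 medians of 0.31, 0.36, -0.17 and -0.25, with 4 to 7 markers measured per array. Medians of the 8 fat body markers also split by dye, from 0.40 to -0.29 over the day 14 arrays and from 0.14 to -1.08 over the day 10 arrays. Only 2 to 7 of the 8 were measured per array, 2 of them on day 10 replicate 3, which gave the -1.08, and single markers did not all follow. Muscle medians, over 2 or 3 genes, were 0.40, 0.03, -0.59 and -0.27 on day 10 replicates 1 to 4 and -0.10, 0.02, -0.34 and -0.28 at day 14. The markers' part in the nSyb values was not tested. The neuron markers on the array, nrv3 and Appl of 8 listed, had day 10 medians of -0.26, -0.19, 0.05 and 0.37, opposite in sign to nSyb on every replicate, and day 14 medians of -0.01, 0.04, -0.15 and -0.46 over 1 or 2 genes. Glia markers, 5 of 8 listed, had day 10 medians of -0.26, -0.50, -0.24 and 0.32 and day 14 medians of -0.09, -0.30, -0.26 and -0.38. Since ratios hold no level, markers could show no more than that head transcripts were measured.

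Syt12, a synaptotagmin found on synaptic vesicles in mammals, had 0.74, -0.17, -0.01 and -0.06 at day 14, a mean of 0.13 ± 0.17 (SE, n = 4). Replicate 1 alone set that mean, which was -0.08 without it and 0.16 with deposited signs. At day 10 Syt12 lay at 0.03, 0.00 and -0.07 on replicates 1, 2 and 4 and averaged -0.01 ± 0.20 (SE, n = 3), or 0.03 with deposited signs. The SD of these values was 0.05, so that SE mostly reflects the spread shared in the fit.

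Of the sorting genes tested at day 14, 4 of 12 were above 0, 7 below and Vps16A at 0.00, with a median of -0.03. At day 10, 13 of 20 were above 0 and the median was 0.09. Means ran from -0.26 for Snx1 to 0.68 for Vps4 at day 14 and from -0.23 for shi to 0.52 for Vps50 at day 10.

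The dynamin gene shi, which pinches vesicles from the surface, was below 0 on all 4 day 14 arrays, at -0.02, -0.23, -0.31 and -0.32, with a mean of -0.22 ± 0.14 (SE, n = 4, adjusted p = 0.999 by limma). At day 10 shi had -0.35, -0.39 and 0.06 on replicates 2 to 4 and a mean of -0.23 ± 0.16 (SE, n = 3). Its means on the 2 days thus differed by 0.00 ± 0.21. With deposited signs they were 0.09 and -0.01.

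The retromer core is made of Vps26, Vps29 and Vps35, which return receptors from endosomes to the Golgi and the surface. Vps29 was the 1 gene with an unadjusted p under 0.05 at day 10. It had 0.67, 0.73, 0.60 and -0.09 there, for a mean of 0.48 ± 0.19 (SE, n = 4) or a 1.39-fold ratio (unadjusted p = 0.0408, adjusted p = 0.991 by limma). With deposited signs that mean was 0.22 (unadjusted p = 0.370, adjusted p = 0.605 by limma). Its partners did not stand with it, since Vps26 averaged -0.01 and Vps35 -0.02 at day 10. The only day 14 value of Vps29 was -0.03, while Vps26 averaged 0.07.

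Snx17 recycles receptors from endosomes in mammals. It was above 0 on all 3 measured day 14 arrays, at 0.42, 0.58 and 0.24 on replicates 1, 3 and 4, with a mean of 0.41 ± 0.22 (SE, n = 3), a 1.33-fold ratio (unadjusted p = 0.0943, adjusted p = 0.999 by limma). The SD of those values was 0.17, and with each day fitted alone the unadjusted p was 0.0152 (adjusted p = 0.558 by limma). At day 10 Snx17 had 0.70, 0.17, -0.28 and -0.33 and a mean of 0.07 ± 0.19 (SE, n = 4). The day 14 arrays kept 1 direction across both dyes, whereas the day 10 arrays split by dye. With deposited signs the day 14 mean was -0.13 and all 4 day 10 values were above 0 with a mean of 0.37.

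Among the other sorting nexins, Snx1, a retromer partner in yeast and mammals, had -0.47, 0.02 and -0.33 at day 14 on replicates 1, 3 and 4, and 0.09, 0.22, -0.02 and 0.13 at day 10. Its means were -0.26 ± 0.16 (SE, n = 3) and 0.10 ± 0.14 (SE, n = 4), and with deposited signs -0.05 and 0.05. Snx3, which helps retromer retrieve the Wnt carrier Wntless in flies, averaged -0.02 at day 14 and 0.10 at day 10. Snx21 averaged 0.05 at day 10, and Snx6 had 2 values on each day, from -0.44 to 0.20.

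Vps4, the ATPase that takes ESCRT filaments apart, had the highest mean of all 21 genes at day 14. Its day 14 log2 ratios were 2.05, 0.28 and -0.29 on replicates 1 to 3, with a mean of 0.68 ± 0.38 (SE, n = 3), or 1.61-fold (unadjusted p = 0.111, adjusted p = 0.999 by limma). Replicate 1 alone produced this, and without it the mean was 0.00. At day 10 Vps4 had 0.67, 0.07, 0.46 and -0.02, a mean of 0.29 ± 0.33 (SE, n = 4). With deposited signs the means were 0.87 at day 14 (unadjusted p = 0.0288, adjusted p = 0.90 by limma) and 0.08 at day 10.

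Vps60, an ESCRT-III-related protein, had -0.03, 0.00, 0.15 and 0.15 at day 14 with a mean of 0.07 ± 0.15 (SE, n = 4). At day 10 it had 0.76, 0.28 and -0.01 on replicates 1, 2 and 4 with a mean of 0.35 ± 0.18 (SE, n = 3, unadjusted p = 0.0853, adjusted p = 0.991 by limma). This mean was 0.14 without replicate 1. With deposited signs Vps60 averaged -0.08 at day 14 and 0.35 at day 10. The ESCRT-III subunit gene Vps24 was below 0 on all 4 day 14 arrays, between -0.09 and -0.19, and averaged -0.13 there and 0.21 at day 10. ESCRT-I's Vps37B averaged -0.03 at day 14 and 0.28 at day 10, ESCRT-II's Vps36 averaged -0.10 at day 14, and Vps20, also ESCRT-III, averaged -0.02 at day 10. Kept as deposited, the day 10 means of Vps24, Vps37B and Vps20 were -0.02, 0.50 and -0.16. The day 14 means of Vps24, Vps37B and Vps36 were then 0.04, -0.02 and 0.03.

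Tether genes were measured mostly at day 10. Vps50, of the EARP tether at recycling endosomes, was singled out after its values were seen. It had the highest day 10 mean of the 31 genes, 0.52 ± 0.41 (SE, n = 4), and the widest values, 1.14, 0.68, 1.39 and -1.14. With deposited signs its mean was 0.39. Vps51 and Vps52, which GARP and EARP share, averaged 0.20 and -0.09 at day 10, with every array of Vps51 above 0 and every array of Vps52 below it. Vps53, of the same complexes, had -0.94 and 1.05 on its 2 day 10 arrays.

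Of the HOPS and CORVET tethers of late and early endosomes, Vps16A averaged 0.00 at day 14, and Vps39 averaged -0.07 at day 14 and -0.15 at day 10. Vps8 had 1 value, 0.07 on day 14 replicate 2. Vps33B and Vps16B form a related pair that was seen only at day 10, where Vps16B had the single value -1.30. Vps33B, also singled out after its values were seen, had -0.47, -0.48, 0.63 and 0.64 and a mean of 0.08 ± 0.26 (SE, n = 4). With deposited signs its 4 arrays were alike, the mean was -0.55, and the adjusted p of 0.0753 by limma was the lowest of any of the 31 genes under that reading. Vps45, a partner of syntaxins on endosomes, averaged -0.05 at day 10, and Vps15, the partner of an endosomal lipid kinase, averaged 0.18. Kept as deposited, these 2 means were 0.14 and 0.42. The lipid transfer gene Vps13 had -0.11 on 1 day 14 array and -0.15 on 1 day 10 array.

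**Figure D2:**
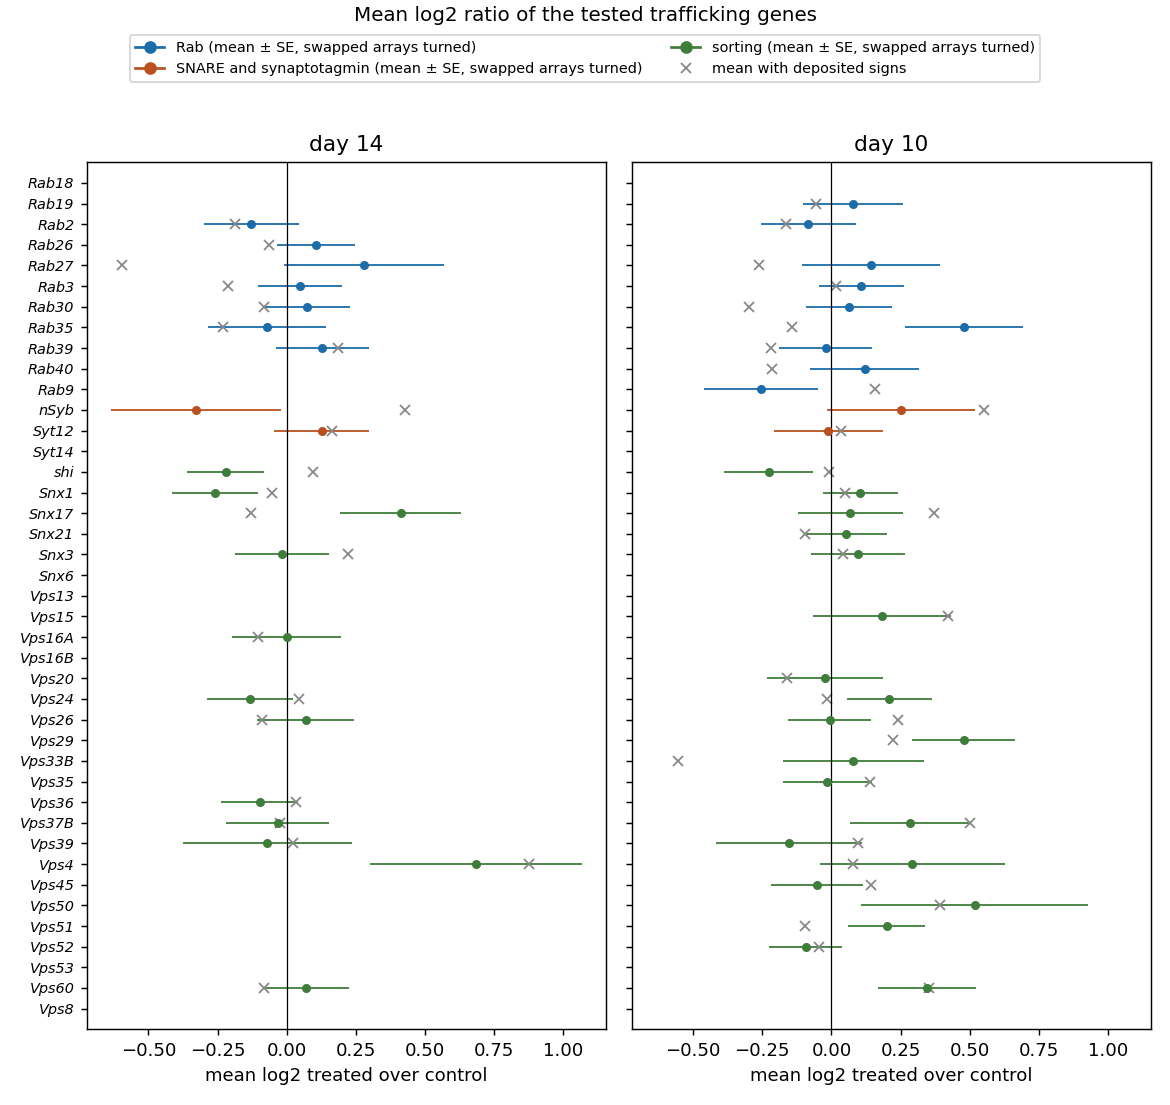
Mean log2 ratio of treated over control (horizontal axis) for each tested gene at day 14 (left) and day 10 (right), with bars of 1 SE from limma's fit and n of 3 or 4 arrays. Grey crosses give the same mean with deposited signs. Vps4 and Snx17 lie farthest right at day 14 with 0.68 and 0.41, and crosses lie on the other side of 0 for genes such as nSyb and Rab27 at day 14.

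The test of the difference between the days covered 18 genes, and 0 passed (0% of 5187 genes and features). At an unadjusted p under 0.05 it was also 0 of 18, where 1.39% of all features stood. The lowest p belonged to Rab35, whose mean of -0.07 at day 14 against 0.48 at day 10 gave a difference of -0.55 ± 0.30 (SE, unadjusted p = 0.0996). nSyb had the largest difference in size, with -0.33 at day 14 against 0.25 at day 10, or -0.58 ± 0.41, and an unadjusted p of 0.192. Snx1 differed by -0.36 ± 0.21, and Snx17 by 0.34 ± 0.29. The median difference over the 18 genes was -0.02, and over all features -0.01. These differences also depend on the turn. Kept as deposited, they were -0.09 for Rab35, -0.13 for nSyb and -0.10 for Snx1, and that of Snx17 turned to -0.50.

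On single arrays the Rab median was -0.15, -0.05, 0.11 and 0.25 on day 14 replicates 1 to 4 and -0.18, -0.08, -0.06 and 0.20 on those of day 10. It was thus below 0 on all 4 Cy5 arrays and above 0 on 3 of the 4 Cy3 arrays. The SNARE and synaptotagmin median, over 1 or 2 genes, was 0.45, -0.17, -0.34 and -0.26 at day 14 and 0.63, 0.19, -0.26 and -0.20 at day 10. It had the sign opposite to the Rab median on every array but day 14 replicate 2 and day 10 replicate 3, where both were below 0. Sorting genes had medians between -0.09 and 0.04 at day 14 and between -0.02 and 0.17 at day 10. Medians of all named genes stayed between -0.02 and 0.01.

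**Figure D3:**
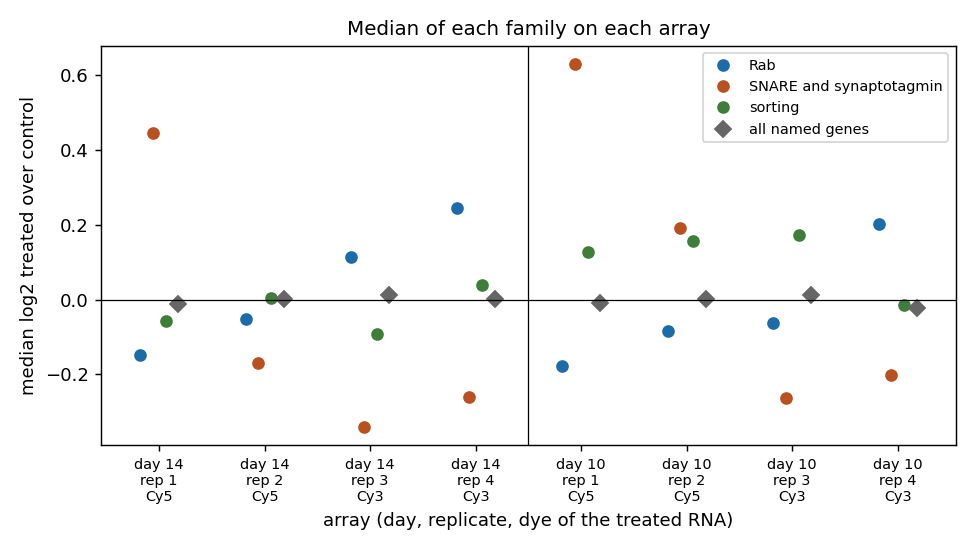
Median log2 ratio of treated over control (vertical axis) over the measured genes of each family on each array, day 14 left and day 10 right, with all named genes as diamonds. Rab medians lie between -0.18 and -0.05 on the Cy5 arrays and between -0.06 and 0.25 on the Cy3 arrays.

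With deposited signs the Rab medians were -0.19 at day 14 and -0.16 at day 10, the SNARE and synaptotagmin medians 0.29 and 0.29, and the sorting medians 0.00 and 0.09. A single sign on every measured array was then more frequent. At day 14 it held for 7 of 21 genes with deposited signs, nSyb, Snx3 and Vps4 above 0 and Rab3, Rab27, Rab35 and Vps26 below it, against 25.1% of all features. At day 10 it held for 10 of 31, nSyb, Syt12, Snx17, Vps15, Vps26, Vps37B and Vps60 above 0 and Rab30, Rab39 and Vps33B below it, against 33.7% of all features. With swapped arrays turned, 3 of 21 genes at day 14 (Snx17 above 0, shi and Vps24 below it) compare with 23% of all features. At day 10, 4 of 31 (Rab35, Snx3 and Vps51 above 0, Vps52 below it) compare with 13%. The members' shares were 33.3% and 32.3% with deposited signs and 14.3% and 12.9% with swapped arrays turned, at day 14 and day 10. Those of day 10 lie near the background, those of day 14 above it in one reading and below it in the other, and none of these genes passed the test.

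Repeat spots gave the spread within an array. Of the 41 genes, 38 had 2 spots, and Rab27, Rab35 and Snx1 had 4, in 2 pairs. The spots of a pair differed by a median of 0.13 log2 units at day 14 (94 pairs) and 0.18 at day 10 (135 pairs). Between arrays the median SD of a tested gene was 0.17 at day 14 and 0.33 at day 10. The 2.05 of Vps4 on day 14 replicate 1 was seen in both of its spots, which lay 0.14 apart. Spots of different pairs could disagree: on day 10 replicate 1 the pairs of Rab35 read 1.66 and -0.38, and the second pair had no value on replicate 3, where the first read 1.22. The pairs of Snx1 read 0.08 and -0.74 on day 14 replicate 4. The Rab27 pairs read 1.09 and 0.65 on day 10 replicate 4, on the same side of 0.

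**Figure D4:**
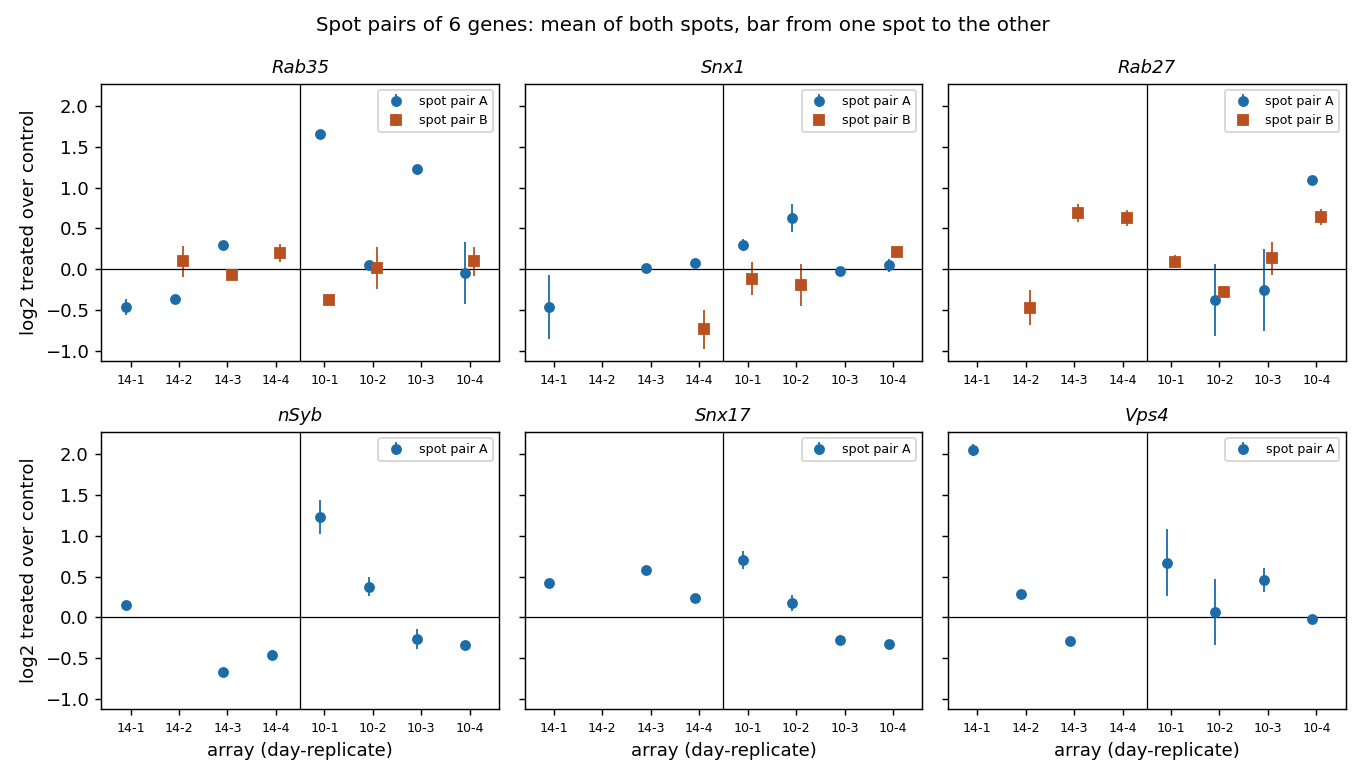
Log2 ratio of treated over control (vertical axis) of each spot pair of 6 genes on each array (horizontal axis, day and replicate, day 14 left), with points at the mean of both spots and bars reaching from one spot to the other. The 2 pairs of Rab35 part on day 10 replicate 1, at 1.66 and -0.38, and the pair of Vps4 stands at 2.05 on day 14 replicate 1.

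Along the table the ratios also drifted, and several of the larger means became smaller when local medians, over long runs and then over runs of 24 neighbouring features, were subtracted. Vps50 at day 10 then averaged 0.12, Rab35 0.10 and Vps29 0.26, against the 0.52, 0.48 and 0.48 given above. The local medians taken off Vps50 were 0.90, 0.44, 0.82 and -0.57 on the 4 arrays, the same signs as the gene. They included its own spots, and on replicate 3 its run held only 6 values, so the shared sign is partly built in. Snx17 at day 14 averaged 0.28, with 0.31, 0.29 and 0.25 on its 3 arrays (unadjusted p = 0.0123, adjusted p = 1.00 by limma), and Vps4 0.69. nSyb averaged -0.24 at day 14 and 0.05 at day 10. For shi the day 14 mean became -0.04, but this value is fixed by construction: on replicates 1 to 3 its own 2 spots were the whole run, so its values there became 0.00, and replicate 4 had 6 values in the run. At day 10, with 6 to 8 values in the run, shi averaged -0.29 (unadjusted p = 0.0132, adjusted p = 0.751 by limma), the lowest p of the 31 genes in this setting. Rab3 at day 10 averaged 0.35 in this setting (unadjusted p = 0.0191), and 0 genes passed the adjusted threshold in it.

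The wider trafficking lists, of exocyst and Golgi tethers, other SNAREs, Rab regulators, clathrin coats, COP coats and lysosomal genes, had 87 genes on the array. At day 14, 37 could be tested, 13 above 0 and 24 below, and at day 10 it was 79, with 48 above and 31 below, and 0 passed on either day. Medians over them were -0.03 at day 14 and 0.05 at day 10. Lamp1, a lysosomal membrane protein, had -0.51, -0.30, -0.23 and -0.25 at day 14, all below 0, with a mean of -0.32 ± 0.13 (SE, n = 4, unadjusted p = 0.0338, adjusted p = 0.999 by limma), and 0.07, 0.07 and -0.15 on day 10 replicates 1, 2 and 4. Sec31, a COPII coat protein, had the lowest p at day 10, with -0.49, -0.42 and -0.83 on replicates 1, 3 and 4 and a mean of -0.58 ± 0.19 (SE, n = 3, unadjusted p = 0.0229, adjusted p = 0.991 by limma). With deposited signs the means of Lamp1 and Sec31 were -0.08 and 0.25, and centred by position -0.26 and 0.10, so that the direction of Sec31 turned in both. By list, 5 of 7 tested exocyst and tether genes lay above 0 at day 14, as did 1 of 2 Rab regulators and 2 of 8 clathrin genes. So did 1 of 1 COP coat genes and 3 of 10 ESCRT and lysosomal genes. Among other SNAREs and fusion factors 1 of 9 tested genes was above 0 at day 14 and 8 of 13 at day 10, where 51% and 55.4% of all features were. Their medians were -0.11 and 0.04, and 0.02 and 0.04 with deposited signs. One of them, Syb, the synaptobrevin used outside synapses, had -0.44, -0.19 and -0.19 at day 14 on replicates 1, 3 and 4, and 0.59, 0.20, -0.47 and -0.57 at day 10, a split by dye at day 10 like that of nSyb.

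The number of arrays limits how small a difference could be called. The median SE of the trafficking genes was 0.17 at day 14 and 0.18 at day 10, close to the 0.18 and 0.20 of all features. Since the days share the spread estimate, these SEs are alike although the median SDs between arrays were 0.17 and 0.33. Simulated data had the same blanks and spread and 100 planted changes. The fit called 77% of changes of 1 log2 unit at day 14 and 74% at day 10, and 98% and 97% of changes of 2 log2 units. The noise there was independent between genes, without the drift of the real arrays.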

How the data were processed

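What the authors deposited is a log2 ratio between the 2 dye channels for each feature and array. Per the labels' protocols, the authors quantified scans in GenePix Pro 6.0, normalized ratios per array in Acuity 4.0 and filtered weak, saturated or irregular spots, which leaves blanks. How far spots stood above background is unknown, as no scanner files were used. Symbols came from the platform annotation, updated through the RefSeq gene table (14894 of 15116 features with 1 symbol matched, and 222 kept their symbol). A further 102 features had several symbols and 12430 none, and these entered the fit unnamed. Each array was centred on its median (-0.83 to 0.29 as deposited), spots of a gene were averaged, and arrays with treated RNA in Cy3 were turned.

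With limma 3.58.1 (R 4.3.3), a mean per day was fitted over the 8 arrays and its moderated test run on genes and features with at least 3 of 4 values, with Benjamini-Hochberg adjustment over all of them and a threshold of 0.05. Both days shared the estimate of the spread. The labels call the arrays biological replicates. The fit was tested on simulated data and gave 6 false calls among 6142 genes and features at day 14 and 10 among 11312 at day 10.

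Given in full were, per family and day, the 3 tested genes of lowest p, and nSyb, shi, Rab3 and Snx17 by name, 14 genes in all, with the other genes by means, ranges and counts. The genes and lists were chosen with earlier results of these data known. Alternatives kept deposited signs, left arrays uncentred, centred by position (medians of long runs and then of runs of 24 features in table order) with either sign, required 4 of 4 values, added a replicate block or a dye term, took each day or each dye orientation by itself, and dropped every array in turn. Another list, of vesicle transmitter transporters, had 0 symbols on the array. Glia, muscle and hemocyte markers had 5, 3 and 3 genes on the array. Every marker list gave 0 calls, as did all genes and features.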

Additional observations from a re-analysis of the deposited data

Results flagged for a closer look

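A single array stood apart from the other 3 of its day in 3 of the 41 sets of 4 values checked, where chance would set about 1 in 20 apart (gap over range above Dixon's critical value for 4 samples). All 3 were day 10 values on replicate 4, a Cy3 array. Rab2 stood at 0.325 there and between -0.25 and -0.17 on the other 3 arrays. Rab40 stood at 0.752 against -0.10 to -0.08. Vps29 stood at -0.0915 against 0.60 to 0.73. The position-centred values of these 3 genes on that array were -0.05, 0.10 and 0.44, and the cause of the gaps was not tested.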

How the results depend on the processing

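The number of trafficking genes past the threshold was 0 at day 14, at day 10 and for the difference under every alternative run, as was the number over all features. Unadjusted counts over all features at day 14 and day 10 were 176 and 513, and they were 315 and 2558 with deposited signs, 35 and 631 without centring, 244 and 715 centred by position, and 533 and 301 with each day fitted alone. With a replicate block they were 342 and 1218, and 150 for the difference against 72. Leaving out single arrays gave 77 to 351 at day 14, 391 to 1745 at day 10 and 40 to 419 for the difference. At day 14 it was 351 of 7994 without replicate 2 of that day, and 77 of 6510 and 84 of 6726 without replicates 3 and 4. The totals differ because a day that lost an array needed only 2 of 3 values. Day 10 and difference counts were highest without day 10 replicate 4, where 5 of 32 trafficking genes stood at day 10, against 1745 of 12032 genes and features. Whether replicate numbers pair the days was not settled. Values of the same number correlated at 0.03, 0.37, 0.22 and 0.19 for replicates 1 to 4, while day 10 replicate 1 correlated best with day 14 replicate 2 (0.29). The values behind the deviations had been turned by dye, so the correlations can follow dye orientation as well as pairing.

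Signs of single genes did depend on the settings, and the cause was not tested beyond what each alternative's construction shows. Of 26 day means of the 14 genes given in full, 10 turned with deposited signs, 5 without centring, 5 centred by position and 17 centred by position with deposited signs. With deposited signs, day 14 means were 0.43 for nSyb, -0.59 for Rab27, -0.21 for Rab3, 0.095 for shi, -0.13 for Snx17 and -0.083 for Vps60, with family medians of -0.19 (Rab) and 0.29 (SNARE and synaptotagmin). Day 10 means were then -0.26 for Rab27, -0.14 for Rab35, 0.16 for Rab9 and 0.033 for Syt12, with a Rab median of -0.16. Without centring, day 10 gave -0.014 for nSyb, -0.12 for Rab27, -0.16 for Rab3, -0.16 for Snx1 and -0.20 for Snx17, with medians of -0.20 (Rab), -0.18 (SNARE and synaptotagmin) and -0.19 (sorting), where the median of all features was itself -0.25. Centred by position, Rab2 had 0.016 at day 14 and 0.084 at day 10, and at day 10 Rab39 had 0.018, Snx17 -0.10 and Syt12 0.076. With deposited signs as well, day 14 gave nSyb 0.48, Rab2 0.033, Rab27 -0.24, Rab3 -0.050, shi 0.036, Snx17 -0.078, Syt12 -0.0061 and Vps60 -0.15. Day 10 gave Rab2 0.057, Rab27 -0.25, Rab3 -0.022, Rab35 -0.25, Rab9 0.11, shi 0.17, Snx17 -0.038, Syt12 0.014 and Vps29 -0.091.

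On the Cy5 arrays alone, day 14 gave Rab3 -0.16, Vps60 -0.012 and a SNARE and synaptotagmin median of 0.29, and day 10 gave Rab27 -0.12, Syt12 0.017 and a Rab median of -0.095. On the Cy3 arrays alone, day 14 gave Rab2 0.059, Rab35 0.16, Rab39 -0.056, Syt12 -0.036 and a sorting median of -0.10. Day 10 gave nSyb -0.30, Rab2 0.079, Rab39 0.20, Snx17 -0.30, a Rab median of 0.34 and a SNARE and synaptotagmin median of -0.30. Leaving out single arrays, day 14 means ran from -0.30 to 0.0022 for Rab2, -0.035 to 0.14 for Rab3, -0.16 to 0.060 for Rab35, -0.0085 to 0.25 for Rab39, -0.081 to 0.22 for Syt12 and -0.0003 to 1.17 for Vps4. Day 10 means ran from -0.076 to 0.45 for nSyb, -0.10 to 0.30 for Rab27, -0.14 to 0.11 for Rab39, -0.14 to 0.20 for Snx17 and -0.031 to 0.017 for Syt12. The day 10 Rab median then ran from -0.07 to 0.15. Neither the replicate block, the dye term, the fit of each day alone nor the stricter filter turned any of the 26 means that it could give. This was largely fixed by construction. The fit of each day alone and the stricter filter leave a mean as it was. So do the block and the dye term for a gene with values on all 4 arrays of a day. These settings therefore say little about the signs. Depth is unknown, and 4 arrays a day limit what could be called.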

Other observations

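Correlations of single arrays over the trafficking genes, before any turn of sign, are given as a description, since the points share an array pair and their place in the table. The pair of day 14 replicates 3 and 4, both Cy3, had r = 0.659 over 22 genes and 0.42 over all features. Day 10 replicates 2 and 4, of opposite dyes, had r = 0.777 over 34 genes and 0.39 over all features, with Vps33B, Vps53 and Rab27 low and Vps39 and Vps50 high on both before turning. Day 14 replicates 1 and 2 had r = 0.611 over 14 genes but -0.03 over all features. Day 10 replicate 3 had r of -0.19, -0.32 and -0.29 with replicates 1, 2 and 4, over 22 to 24 genes.

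A few trafficking genes outside the rule are given as values, chosen after these were seen. Tango1, which loads large cargo at endoplasmic reticulum exit sites, had 1.61, 0.96, 1.41 and -0.87 on day 10 replicates 1 to 4, and -0.14 on its only day 14 array, replicate 4. The clathrin light chain gene Clc had -0.18, -0.14, -0.21 and -0.13 at day 14 and -1.33, -0.11, -0.50 and 0.41 at day 10. Sec22, a SNARE of the early secretory path, was below 0 on all 4 day 14 arrays, from -0.48 to -0.01, and above 0 on all 4 day 10 arrays, from 0.06 to 1.31. Its difference between the days was -0.65 ± 0.30 (SE), with an unadjusted p of 0.0604 and an adjusted p of 1.00 by limma. With deposited signs its means were -0.20 at day 14 and -0.29 at day 10, and the difference turned to 0.09.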
